A study of Homo sapiens with 47 samples.

Results

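HAP1 clone C2 is a line of the near-haploid human leukemia cell HAP1 grown from 1 cell after CRISPR-Cas9 cutting of NUP58, and it was compared here with the parental wild-type line (WT). The comparison used the 4 libraries labelled C2 and the 4 labelled WT, out of 47 RNA libraries in the series. Another 20 libraries came from 5 further NUP58-mutated clones (C1, C3, C4, C5 and C6), and 4 from EV, cells transfected with Cas9 but no guide RNA. The guides were directed to exons 4 and 13, and the smallest viable colonies were kept. C2 carries a large deletion around exon 4 that reaches into exon 5, and exon 13 is mutated as well. RNA was taken at the earliest passage after editing. All of these HAP1 lines share the parental background. C2 is 1 clone, so what NUP58 mutation changed and what was particular to the founding cell cannot be told apart. The p-values measure the spread between 4 libraries of a line. The paper describes these as independent experimental replicates, while the labels do not tie them to separate cultures.

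NUP58 is one of the FG nucleoporins that line the central channel of the nuclear pore and hold the mesh through which karyopherins carry cargo between cytoplasm and nucleus. HAP1 cells descend from a chronic myeloid leukemia with the BCR-ABL fusion but grow attached to the dish, and are known to have lost most of the blood cell programme. Of 19 haematopoietic markers, 8 were at 0 in all 8 libraries and 13 stayed under 1 FPKM (fragments scaled to transcript length and to the size of the library), and the summed FPKM of the 19 was 39.6 to 44.4 in C2 and 33.8 to 45.3 in WT. Of 14 colon markers of HCT116, the other cell line of the series, 1 reached the level needed for testing, and their sum was 3.62 to 5.93 in C2 and 3.23 to 5.89 in WT.

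The edited gene was checked first. NUP58 (ENSG00000139496.15, chr13:25301524-25365390, plus strand, GRCh38) had an FPKM of 7.98, 10.7, 11.5 and 8.98 in C2 and 34.3, 34.7, 50.4 and 45.8 in WT. All 4 C2 libraries lay below all 4 WT libraries. The C2 mean was 23.7% of the WT mean (log2 fold change -1.96 ± 0.17 SE, limma, adjusted p = 0.000709; exact two-sided permutation test, p = 0.0286, the smallest that 70 arrangements of 4 against 4 can give). EV lay at 35.3 to 45 and overlapped WT. Among the mutant clones C2 had the lowest mean, 9.80 ± 1.60 (SD, n = 4), and C1 was at 10.1 ± 0.900. C3 had a mean of 12.8 ± 1.95, the mean of C6 was 15.4 ± 2.37, that of C5 was 15.6 ± 5.48, and C4 kept the most at 25.5 ± 2.24. C2 and C1 overlapped and differed by -0.05 on the log2 scale, so their order does not exceed the spread of the libraries. C2 was lower than C4 by 1.30 and than C6 by 0.61 on the log2 scale (limma, adjusted p = 0.000349 and 0.0356), and the differences from C3 and C5 did not pass the threshold. Against the mean of the other 5 clones it was -0.58 ± 0.14 SE, adjusted p = 0.0659. The paper describes NUP58 transcripts that end early in C1, C2, C3 and C5, and names no early end for C4 and C6. The last exon alone has 2457 bases in the transcript ENST00000381736. An early end removes bases that can be read, so gene-level FPKM can fall with the number of transcripts unchanged. How much this adds to the differences of C2 from WT, C4 and C6 was not tested.

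Exons 4 and 5 of NUP58 are shown whole because the deletion in C2 touches both. The deletion takes only part of exon 5 and its ends are not given here, so these bases do not show its size. The transcript end at exon 13 lies outside them. Exon 4 (chr13:25312883-25313032) has 150 bases and exon 5 (chr13:25313614-25313751) has 138 in the transcript ENST00000381736, both multiples of 3, read from the GRCh38 reference on the plus strand and not from these cells. Capitals mark exon 4 and lower case exon 5.
NUP58 exons 4 and 5: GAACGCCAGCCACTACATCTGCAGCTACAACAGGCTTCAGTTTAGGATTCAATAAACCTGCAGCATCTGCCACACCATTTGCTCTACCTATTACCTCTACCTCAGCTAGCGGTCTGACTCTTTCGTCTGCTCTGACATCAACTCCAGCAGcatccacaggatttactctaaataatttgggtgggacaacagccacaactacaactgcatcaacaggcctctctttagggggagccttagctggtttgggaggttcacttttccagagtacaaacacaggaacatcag
The 6 other tested genes within 1 Mb of NUP58 did not pass the test (PARP4, CENPJ, MTMR6, ATP8A2, RNF6 and CDK8), with log2 fold changes from -0.14 for PARP4 to 0.69 for ATP8A2.

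Across the transcriptome 13120 genes averaged 1 FPKM or more in these 8 libraries and were tested with limma on log2(FPKM + 1). A gene was called when its unadjusted p was under 0.01 and its fold change over 2, and 159 genes were called in C2, which is 1.21% of those tested. Of these, 68 were higher (0.518%) and 91 lower (0.694%) than in WT, and 135 encode proteins. In 136 of the 159 the 4 C2 libraries did not overlap the 4 WT libraries, and in 8.70% of all tested genes. The calls were made on the same 8 libraries, so this difference follows largely from the calls. At an adjusted p under 0.05, 96 genes passed (0.732%), 45 higher (0.343%) and 51 lower (0.389%), and 73 of the 159 called genes were among them. The second count was 34 without WT replicate 1, 38 without WT replicate 4 and 35 without C2 replicate 3. With the replicate numbers as a block it was 161, of which 89 were among the 96. The median log2 fold change of all tested genes was -0.03. Adding 1 before the logarithm makes every fold change given here too small for genes at low levels. FPKM carries no fragment counts, so the depth behind a value is unknown here.

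The genes with the largest increases included ones of vesicle release, extracellular signals, matrix and cell adhesion that were at low levels in WT. SYT1, the calcium sensor of synaptic vesicle release, had an FPKM of 46.7, 35.2, 44.9 and 70.1 in C2 and 2.23, 2.98, 1.24 and 1.98 in WT. The groups lay far apart, and the highest WT library was at 2.98 (log2 fold change 4.00 ± 0.23 SE, limma, adjusted p = 4.78e-05). STXBP2, a syntaxin-binding protein of granule exocytosis, had an FPKM of 22.8, 18.7, 16.4 and 18.6 in C2 and 3.61, 5.60, 2.58 and 3.59 in WT. It was higher than WT in all 4 libraries (log2 fold change 2.08 ± 0.19 SE, limma, adjusted p = 0.00107), but EV, which received no guide RNA, lay at 19.4 to 26.3, and against EV the log2 difference was -0.29. RIMS2, a scaffold of the active zone, was called at 1.09, with C2 replicate 2 inside the WT range, and the call was lost when any 1 library other than C2 replicate 2 was left out (0.86 to 1.18). These were the 3 called members among 33 tested genes of regulated exocytosis and synapse, whose median of -0.06 was near that of all genes.

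Among secreted signals, BMP7, a ligand of the TGF-beta family, had an FPKM of 26.3, 20.1, 17.8 and 25.4 in C2 and 1.88, 2.14, 1.28 and 0.922 in WT (log2 fold change 3.20 ± 0.20 SE, limma, adjusted p = 6.74e-05). All C2 libraries were above all WT libraries, and EV lay between them at 8.15 to 13.5, so that the log2 difference from EV was 0.95 (adjusted p = 0.0344) and under 2-fold. SFRP1, a secreted antagonist of Wnt ligands, had an FPKM of 18.9, 13.3, 13.5 and 9.48 in C2 and 2.26, 1.69, 2.09 and 1.30 in WT (log2 fold change 2.36 ± 0.21 SE, limma, adjusted p = 0.000911). DLK1, a non-canonical Notch ligand, had an FPKM of 42.7, 42.3, 27.8 and 41.5 in C2 and 3.62, 3.75, 12.2 and 3.25 in WT. WT replicate 3 stood above the other WT libraries and C2 replicate 3 below the other C2 libraries, yet the groups did not overlap (log2 fold change 2.72 ± 0.34 SE, limma, adjusted p = 0.00577). BMP7 was the 1 call among 40 tested genes of TGF-beta and BMP signalling and SFRP1 the 1 call among 33 of Wnt signalling, and none of 22 genes of the Notch pathway was called. The medians of these lists were 0.11, 0.08 and 0.07, and of all tested genes 1.21% were called. In the FGF and EGF list ETV1, a transcription factor of the ETS family, was the 1 call of 27 (log2 fold change 1.66 ± 0.28 SE, limma, adjusted p = 0.0268). GPR1, a receptor of the ligand chemerin, had an FPKM of 6.20, 40.6, 11.6 and 6.05 in C2 and 1.32, 0.712, 1.16 and 1.18 in WT, with C2 replicate 2 far above the other 3 (log2 fold change 2.62 ± 0.49 SE, limma, adjusted p = 0.0428).

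Matrix and adhesion genes moved in both directions. MFAP2, a glycoprotein of elastic microfibrils, had an FPKM of 28.8, 25, 16 and 17.2 in C2 and 0.316, 0.746, 0.318 and 0.239 in WT (log2 fold change 3.99 ± 0.22 SE, limma, adjusted p = 4.78e-05). It was close to silent in WT and lay at 16 or above in every C2 library. SPARC, a calcium-binding protein of the matrix, showed the reverse, with an FPKM of 1.92, 1.61, 2.02 and 1.43 in C2 and 18.4, 24.3, 15.09 and 15.11 in WT (log2 fold change -2.79 ± 0.18 SE, limma, adjusted p = 6.75e-05). CYR61, a matrix-associated signalling protein, had an FPKM of 2.07, 5.50, 2.15 and 2.08 in C2 and 43.5, 14.3, 13.2 and 8.42 in WT, and WT replicate 1 stood far above the other WT libraries. It was called but did not pass the adjusted test (log2 fold change -2.22 ± 0.44 SE, limma, adjusted p = 0.0537, and adjusted p = 0.0418 with the replicate block). SPARC and CYR61 were the 2 calls among 40 matrix genes, and TIMP1, an inhibitor of matrix proteases, also passed the adjusted test at -0.77. CHL1, a neural adhesion molecule of the L1 family, had an FPKM of 5.04, 5.57, 5.87 and 6.88 in C2 and 0.595, 0.989, 0.125 and 0.404 in WT (log2 fold change 2.19 ± 0.21 SE, limma, adjusted p = 0.00129). PCDHB2, a clustered protocadherin, had an FPKM of 4.99, 5.18, 4.81 and 6.0 in C2 and 0.353, 0.439, 0.240 and 0.434 in WT (log2 fold change 2.19 ± 0.17 SE, limma, adjusted p = 0.000334). It was the 1 call among 7 tested members of the protocadherin clusters, which share sequence, so that reads may have been divided between them. In the list of integrins and adhesion molecules 3 of 30 were called. ITGB8, an integrin subunit, was higher by 1.06 and CADM1, a cell adhesion molecule, by 1.61, where WT replicate 4 (1.91) exceeded C2 replicate 4 (1.39). CDH3, P-cadherin, was lower (log2 fold change -1.76), with an FPKM of 2.07, 2.28, 1.06 and 0.765 in C2 and 12.2, 11.5, 2.84 and 6.63 in WT. Of the 3, ITGB8 passed the adjusted test (limma, adjusted p = 0.0304), and neither CADM1 (0.106) nor CDH3 (0.0789) did. With the replicate numbers as a block in limma the adjusted p was 0.0527 for ITGB8 and 0.0185 for CDH3.

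**Figure D1:**
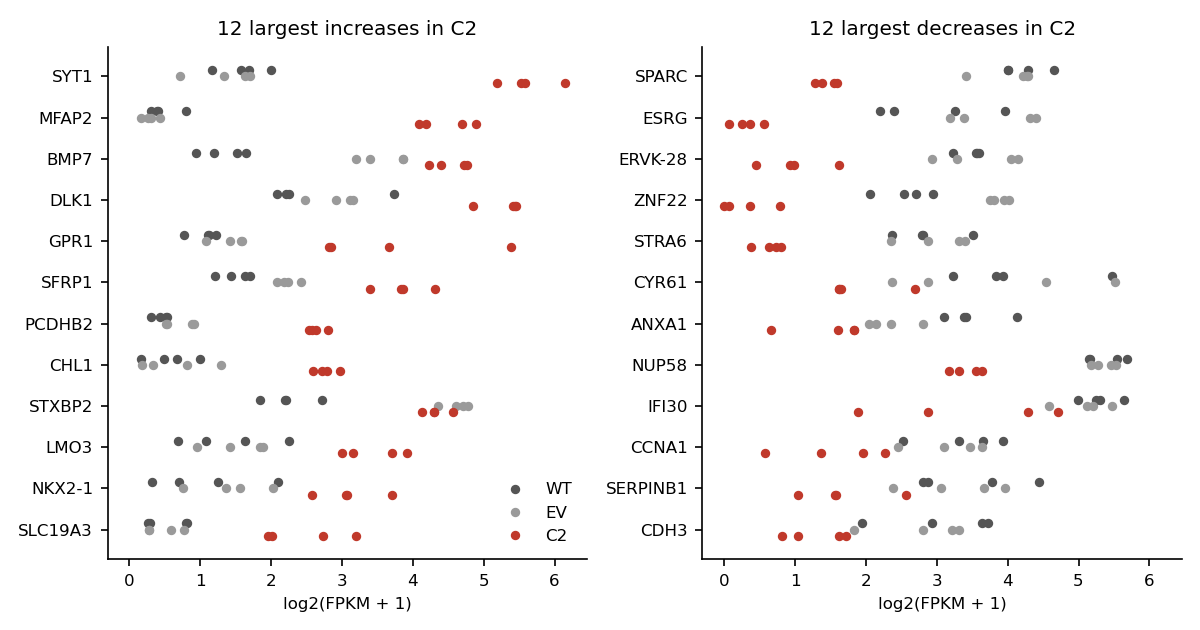
log2(FPKM + 1) of the 12 called genes with the largest increase (left) and the 12 with the largest decrease (right) among those without overlap between C2 and WT. Each point is 1 library of WT, EV or C2, and EV lies with C2 in STXBP2 and between the groups in BMP7 and ANXA1.

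Epithelial genes were lower in C2. Of 15 markers 4 were expressed highly enough to be tested and all 4 were below WT, 3 of them past the adjusted test, with a median of -0.98. KRT8, a keratin of simple epithelia, had an FPKM of 3.17, 1.40, 2.43 and 3.30 in C2 and 10.6, 12.6, 6.01 and 10.8 in WT (log2 fold change -1.62 ± 0.25 SE, limma, adjusted p = 0.0193). Its partner KRT18 was at 21.5, 23.5, 19.1 and 20.3 in C2 and 33.5, 30.2, 43.6 and 42.8 in WT, and passed the adjusted test without reaching a 2-fold change (log2 fold change -0.79 ± 0.14 SE, limma, adjusted p = 0.0408, and adjusted p = 0.0574 with the replicate block). ESRP1, a splicing regulator of epithelial cells, was at 2.12, 1.63, 1.34 and 1.16 in C2 and 6.60, 4.75, 3.12 and 5.05 in WT (log2 fold change -1.18 ± 0.22 SE, limma, adjusted p = 0.0442). The summed FPKM of the 15 markers was 26.9 to 35.6 in C2 against 59.2 to 67 in WT, and the groups did not overlap. Mesenchymal markers did not move as 1 group. Of 10 tested, 5 were above and 5 below WT, SPARC was called lower, and ZEB2, a repressor of epithelial genes, passed the adjusted test at 0.81 (limma, adjusted p = 0.0274). In bulk RNA, fewer cells of a type and less RNA per cell cannot be told apart.

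Annexins and S100 proteins, a group of calcium-binding membrane and cytoskeletal proteins, were mostly lower. Of 12 tested, 11 were below WT, 3 were called lower, and the median was -0.49. ANXA1, a regulator of inflammation, had an FPKM of 2.56, 0.588, 2.05 and 2.57 in C2 and 16.5, 9.47, 9.60 and 7.60 in WT (log2 fold change -2.02 ± 0.30 SE, limma, adjusted p = 0.016). EV lay between the groups at 3.13 to 6.0, and against EV the log2 difference of -0.85 did not pass (adjusted p = 0.162). S100A6 was at 16.1, 10.6, 13.8 and 9.21 in C2 and 37.1, 60.5, 23.6 and 30.2 in WT (log2 fold change -1.48 ± 0.27 SE, limma, adjusted p = 0.0408). S100A11 was at 42.6, 18.6, 20.3 and 12.4 in C2 and 72.3, 71.8, 48.7 and 37.8 in WT, so C2 replicate 1 overlapped WT (log2 fold change -1.35, adjusted p = 0.116, and adjusted p = 0.0185 with the replicate block), and it was not called against EV. The call of ANXA1 was lost against EV as well, and S100A6 kept it (log2 difference -1.77).

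Several regulators of development were called higher. NKX2-1, a homeobox factor of thyroid, lung and forebrain, had an FPKM of 12, 7.28, 7.42 and 4.94 in C2 and 1.37, 3.28, 0.246 and 0.618 in WT (log2 fold change 2.01 ± 0.37 SE, limma, adjusted p = 0.0429), and LMO3, a LIM-only cofactor, of 14.1, 7.0, 12.1 and 7.91 in C2 and 3.76, 2.09, 0.611 and 1.11 in WT (log2 fold change 2.03 ± 0.34 SE, limma, adjusted p = 0.0249). The C2 and WT libraries of these genes were separate, with WT spread widely at low levels. Of 23 tested HOX genes 18 were above WT (median 0.30), 2 were called and 4 passed the adjusted test. HOXC10 was at 24.1, 23.4, 23.5 and 16.8 in C2 and 5.43, 8.88, 3.89 and 5.01 in WT (log2 fold change 1.79 ± 0.22 SE, limma, adjusted p = 0.00543), and HOXD13 rose by 1.07 (adjusted p = 0.0477). The HOXD13 call was lost without C2 replicate 3 (0.94) or WT replicate 2 (0.99). HOXA11 and HOXA13 passed the adjusted test at 0.74 and 0.94, HOXA11 not with the replicate block in limma (adjusted p = 0.0504). The number of HOX calls was 5 without C2 replicate 4 and 4 without WT replicate 2. IRX3, a homeobox factor of limb and neural patterning, was at 17, 16.9, 16.1 and 17.3 in C2 and 6.53, 10.1, 6.50 and 8.07 in WT (log2 fold change 1.04 ± 0.15 SE, limma, adjusted p = 0.0131), a change that was just under 2-fold without WT replicate 1 or 3 (0.97 and 0.97). ZIC2, a zinc finger factor of forebrain development, passed the adjusted test at 0.90 (limma, adjusted p = 0.0335, and adjusted p = 0.0555 with the replicate block). No SOX, FOX, PAX, T-box, LIM homeobox, GATA or TEAD gene was called, beside 1.21% of all tested genes.

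Zinc finger genes of the ZNF family showed 1 call in each direction among 385 tested. ZNF608 was higher, with an FPKM of 8.88, 6.57, 6.13 and 4.53 in C2 and 1.02, 1.94, 0.964 and 0.632 in WT (log2 fold change 1.82 ± 0.24 SE, limma, adjusted p = 0.00838). ZNF22 was lower, with an FPKM of 0.284, 0.719, 0 and 0.0538 in C2 and 5.55, 3.16, 4.78 and 6.73 in WT (log2 fold change -2.26 ± 0.26 SE, limma, adjusted p = 0.00412). It was near 0 in C2 and higher still in EV (12.5 to 15.3) than in WT. A pair of transcripts of retroviral origin was lower too. ESRG, a long noncoding RNA derived from an endogenous retrovirus and known from stem cells, had an FPKM of 0.194, 0.480, 0.282 and 0.0503 in C2 and 3.59, 4.28, 14.6 and 8.60 in WT (log2 fold change -2.64 ± 0.36 SE, limma, adjusted p = 0.00981). ERVK-28, an endogenous retrovirus K element, had an FPKM of 2.06, 0.984, 0.370 and 0.911 in C2 and 10.8, 8.39, 10.9 and 11.1 in WT (log2 fold change -2.49 ± 0.24 SE, limma, adjusted p = 0.00122). Both groups were separate in each, though reads of repeats can be shared between copies.

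Among carriers, STRA6, the membrane receptor for retinol-binding protein, had an FPKM of 0.743, 0.296, 0.548 and 0.660 in C2 and 5.92, 4.19, 6.02 and 10.3 in WT (log2 fold change -2.24 ± 0.25 SE, limma, adjusted p = 0.00349). SLC19A3, a thiamine transporter, had an FPKM of 8.20, 2.89, 5.62 and 3.02 in C2 and 0.753, 0.743, 0.217 and 0.202 in WT (log2 fold change 1.93 ± 0.30 SE, limma, adjusted p = 0.0193). It was the 1 solute carrier called higher of 204 tested. SLC43A3, a purine base transporter, was called lower at 1.90, 3.16, 4.12 and 2.96 in C2 and 12.7, 8.11, 15.9 and 14 in WT (log2 fold change -1.76 ± 0.23 SE, limma, adjusted p = 0.00878). SLC4A8 and SLC44A3 were also called lower at -1.02 and -1.04 but neither passed the adjusted test (0.158 and 0.189), and both calls depended on single libraries. SLC4A8 lost its call without C2 replicate 2 or 4 or WT replicate 1 or 2 (-1.04 to -0.75), and SLC44A3 without any 1 C2 library or WT replicate 2 or 4 (-1.10 to -0.74). The 204 carriers had a median of -0.11.

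The other 3 of the 12 largest decreases without overlap between C2 and WT were called without passing the adjusted test. IFI30, a lysosomal thiol reductase, had an FPKM of 25.3, 6.33, 18.6 and 2.70 in C2 and 48.7, 37, 30.8 and 38.6 in WT (log2 fold change -1.85, adjusted p = 0.159), and C2 replicates 2 and 4 were far below the other C2 libraries. Its call was lost without C2 replicate 2, WT replicate 1 or WT replicate 4, at -1.67, -1.74 and -1.85. CCNA1, cyclin A1, had an FPKM of 3.80, 0.496, 2.89 and 1.59 in C2 and 11.5, 14.3, 4.75 and 8.97 in WT (log2 fold change -1.81, adjusted p = 0.0758). SERPINB1, an inhibitor of leukocyte proteases, had an FPKM of 4.91, 2.0, 1.94 and 1.06 in C2 and 12.7, 20.7, 6.02 and 6.33 in WT (log2 fold change -1.79, adjusted p = 0.0897, and adjusted p = 0.0304 with the replicate block). In each the libraries of C2 and WT stayed apart by a narrow margin.

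Several genes changed as much or more but overlapped between C2 and WT, and none of the following 5 passed the adjusted test. AC000041.8, an unprocessed pseudogene, had an FPKM of 0, 0, 19.99 and 0 in C2 and 17.1, 19.2, 19.5 and 59.4 in WT, so C2 replicate 3 lay among the WT libraries (log2 fold change -3.60 ± 0.91 SE, limma, adjusted p = 0.121). It was the largest called decrease and was called in no other clone, but it did not pass against the clone mean (adjusted p = 0.488), and the call was lost without C2 replicate 2 (-3.23). In each HAP1 library AC000041.8 was either at 0 or at 15.6 and above, and how few fragments lie behind such a value is unknown here. AC007881.4, another unprocessed pseudogene, was listed at 0 in all 4 C2 libraries and in WT replicate 4, and at 16 to 24.1 in the other WT libraries. Its call was lost without WT replicate 1 or 3, and at 0 in C2 no fold is given. Over the HAP1 libraries AC007881.4 too was either at 0 or at 7.36 and above. ACTG2, smooth muscle gamma actin, had an FPKM of 0.350, 0.229, 1.57 and 9.82 in C2 and 5.67, 6.20, 20.8 and 28.6 in WT, with C2 replicate 4 inside the WT range (log2 fold change -2.35 ± 0.71 SE, limma, adjusted p = 0.196, and adjusted p = 0.009 with the replicate block). Its call was lost without any 1 of C2 replicates 1, 2 and 3 or WT replicates 3 and 4 (-2.34 to -1.96). On the higher side the pseudogenes CH17-472G23.2 and BRD9P2 were called at 2.39 and 2.10, with C2 replicate 1 of the first and C2 replicate 4 of the second inside the WT range. BRD9P2 passed the adjusted limma test with the replicate block (adjusted p = 0.0244). The call of CH17-472G23.2 was lost without any 1 library other than C2 replicate 1 (1.73 to 2.47), and that of BRD9P2 without any 1 of C2 replicates 1, 2 and 3 or WT replicates 2 and 4 (1.75 to 2.12). Reads of pseudogenes can be shared with their parent genes.

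In the cell cycle list 2 of 50 genes were called, both D-type cyclins, which start the passage through G1, and the median was 0.03. CCND1 was at 7.25, 8.08, 9.06 and 8.56 in C2 and 1.97, 2.24, 3.90 and 1.35 in WT (log2 fold change 1.51 ± 0.22 SE, limma, adjusted p = 0.0137). CCND2 was at 10.6, 9.21, 5.46 and 3.65 in C2 and 1.76, 2.93, 1.90 and 0.681 in WT (log2 fold change 1.52, adjusted p = 0.08, and adjusted p = 0.0163 with the replicate block). Of 15 genes of BCR-ABL signalling, SOCS2, a feedback inhibitor of JAK-STAT signalling, was the 1 call, at 38.8, 31.3, 31.8 and 43.7 in C2 and 79.9, 77, 81.5 and 97.3 in WT (log2 fold change -1.19 ± 0.14 SE, limma, adjusted p = 0.00423). BCL2L1, which encodes the survival protein BCL-XL, passed the adjusted test at -0.63 (limma, adjusted p = 0.0322). SOCS2-AS1, which overlaps SOCS2, was lower too (log2 fold change -1.47), and since strand-specific counting is not stated, the reads of this pair cannot be told apart.

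The lists of stress programmes held a few calls. Of all tested genes 1.21% were called, so lists this short can hold none without differing from that share. Of 20 NRF2 targets HMOX1, heme oxygenase, was called lower (log2 fold change -1.04, adjusted p = 0.0274) and so was NQO1, a quinone reductase (-1.01, adjusted p = 0.11). Both changes lay at the 2-fold limit. HMOX1 lost its call without C2 replicate 3 (-0.99), C2 replicate 4 (-0.93) or WT replicate 3 (-0.95), and NQO1 without C2 replicate 2 (-0.79), WT replicate 1 (-0.86) or WT replicate 3 (-0.98). Of 21 interferon-stimulated genes ISG15 was called higher at 1.16 (adjusted p = 0.169), with C2 replicate 2 (10.4) close to the highest WT library (9.97), and the call was lost without C2 replicate 1 (0.88), C2 replicate 3 (1.19), WT replicate 3 (1.02) or WT replicate 4 (0.99). KLF2, an immediate early gene and the 1 call of 19, was lower (log2 fold change -1.01, adjusted p = 0.168), with C2 replicate 2 at 3.61 inside the WT range, and the call was lost without any 1 library other than C2 replicate 2 and WT replicate 2 (-1.05 to -0.89). No gene was called among 21 p53 targets, 33 ATF4 targets, 22 genes of the unfolded protein response, 14 heat shock genes, 30 of hypoxia and glycolysis, 15 of MHC class I presentation and 15 of nonsense-mediated decay. Without C2 replicate 2, 2 of the p53 targets were called.

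Several lists without a call leaned to 1 side. Of 33 genes of the ATF4 amino acid response 30 were above WT, with a median of 0.40 beside -0.03 for all genes. Their levels differed widely between libraries of 1 line, and ASNS, asparagine synthetase, had an FPKM of 245, 428, 63 and 39.8 in C2 and 170.5, 251, 45.1 and 55.3 in WT, so C2 lay on both sides of WT. Of 23 genes of cholesterol synthesis 21 were below WT (median -0.41), and of 79 ribosomal protein genes 73 were above it (median 0.15). All 13 mRNAs encoded in mitochondrial DNA were below WT, with a median of -0.60, and 8 of the 13 did not overlap (4.99% of all tested genes were lower without overlap). They took 4.44% to 5.66% of the FPKM in C2 and 5.97% to 9.19% in WT, and the groups did not overlap (exact two-sided permutation test, p = 0.0286, the smallest possible). EV lay at 5.25% to 7.36% and overlapped both. These directions also held after scaling to TPM and by median ratios.

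The nuclear transport genes were examined as the machinery to which NUP58 belongs. None of 31 other nuclear pore components was called or passed the adjusted test, with 9 above and 22 below WT and a median of -0.07. None of 26 karyopherins, 7 genes of the Ran cycle and 19 of mRNA export was called either, and their medians were 0.05, 0.0017 and -0.03. Of all tested genes 1.21% were called, so lists of these sizes can hold no call without differing from that share. KPNA4, an importin alpha, had an FPKM of 20.7, 21.2, 27.7 and 22 in C2 and 14.1, 12.3, 18.1 and 15.8 in WT (log2 fold change 0.58 ± 0.15 SE, adjusted p = 0.131), without overlap. TNPO1, transportin 1, overlapped between the groups, at 62, 73.2, 104 and 85.5 in C2 and 47.9, 42.7, 66 and 55.7 in WT (log2 fold change 0.60 ± 0.18 SE, adjusted p = 0.197), and with the replicate numbers as a block it passed the adjusted limma test (adjusted p = 0.0442). TNPO2 differed by 0.45 ± 0.19 SE and KPNB1, importin beta, by 0.13 ± 0.24 SE (adjusted p = 0.373 and 0.889). The 95% interval of the KPNB1 difference ran from -0.42 to 0.67. Against the mean of the other clones these 4 karyopherins differed by -0.04 to 0.10 on the log2 scale.

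To find which changes were absent from the other clones, each clone was compared with WT by the same test. Of the 159 genes called in C2, 126 passed the call, with the same sign, in 1 or more of the other clones and 33 (9 higher and 24 lower) in none. These comparisons share the WT libraries, so the count describes the calls and does not test a difference. The difference itself was tested between C2 and the mean of the other 5 clones, without WT or EV. A shift in 1 of these clones moves that mean, so a gene can pass mainly through 1 clone, as COCH and VARS do below. At an adjusted p under 0.05, 57 of 13120 genes differed (0.434%), 36 higher (0.274%) and 21 lower (0.16%) in C2. Of the 33 genes called in C2 alone, 5 were among them: CALD1, COCH, LXN, DMRTA2 and GPM6A. COCH, cochlin, a secreted protein of the inner ear, was at 5.42, 5.71, 3.76 and 4.23 in C2 and 11.2, 15.2, 10.3 and 9.61 in WT, and the other clones ranged over 4.97 to 33. Clone by clone COCH passed against C5 (-2.02, limma, adjusted p = 9.58e-05) and not against C1, C3, C4 or C6. Its change against WT was under 2-fold without WT replicate 2 (-0.99). The calls of LXN, latexin, a carboxypeptidase inhibitor, rested on single libraries, and it was not called without any 1 library other than C2 replicate 3 and WT replicate 3 (-1.05 to -0.84). A gene was taken to set C2 apart when it was called against WT, passed this second test in the same direction and had all 4 C2 libraries outside the 20 libraries of the other clones. The C2 libraries enter both tests. Of the tested genes, 12 had C2 libraries outside the other clones (0.0915%), and 4 genes met the whole rule: MFAP2, CHL1, CALD1 and RP11-568K15.1. The count was 7 without C2 replicate 2 and 8 without C2 replicate 4, and these 4 genes were among them each time. Without 1 WT library it was 4 or 5. Of the 4, CALD1 was among the 33 genes called in C2 alone. MFAP2, CHL1 and RP11-568K15.1 were also called in 1 or more of the other clones, so their changes were larger in C2 but not absent elsewhere.

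CALD1, caldesmon, an actin-binding protein that restrains actomyosin contraction, was lower in C2 and in no other clone. Its FPKM was 10.5, 4.34, 7.24 and 7.27 in C2 and 23.8, 18.6, 19 and 19.1 in WT (log2 fold change -1.39 ± 0.21 SE, limma, adjusted p = 0.0189). All C2 libraries were at 10.5 or below and all WT libraries at 18.6 or above. The ranges were 16.8 to 29.5 in C1, 22.7 to 34 in C3, 20.6 to 32.2 in C4, 24.1 to 34.8 in C5 and 26.4 to 30.4 in C6, so C1 overlapped WT and the others lay mostly above it. C2 differed from their mean by -1.82 ± 0.16 SE, adjusted p = 7.55e-07, and from each clone by -1.64 to -1.95 (limma, adjusted p at most 0.000142).

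MFAP2 was highest in C2 but not silent in all other clones. Its FPKM ranges were 0.209 to 0.496 in C1, 3.76 to 9.51 in C3, 1.18 to 3.54 in C4, 2.32 to 7.53 in C5 and 0.982 to 3.81 in C6. C1 stayed at the level of WT, while C3, C4, C5 and C6 lay above every WT library. C2 exceeded the mean of the 5 clones by 2.72 ± 0.24 SE, adjusted p = 7.55e-07, and each clone by 1.70 (C3) to 4.09 (C1). CHL1 showed a smaller step, with ranges of 1.05 to 2.55 in C1, 0.620 to 2.24 in C3, 0.305 to 2.07 in C4, 0.837 to 2.74 in C5 and 1.87 to 3.89 in C6. The difference from the clone mean was 1.39 ± 0.22 SE, adjusted p = 0.00212. Clone by clone it passed against C3, C4 and C5 and did not against C1 (adjusted p = 0.119) and C6 (0.0644). Against WT, CHL1 was also higher in C6 (log2 fold change 1.31, limma, adjusted p = 0.0073). RP11-568K15.1 (ENSG00000242193.9, chr1:178006136-178037950, minus strand, GRCh38), which is known by this clone-based name, had an FPKM of 0.253, 0.296, 0.214 and 0.236 in C2 and 3.68, 2.61, 2.43 and 3.07 in WT (log2 fold change -1.65 ± 0.19 SE, limma, adjusted p = 0.00423). It ranged over 1.11 to 1.86 in C1, 1.55 to 2.37 in C3, 0.866 to 1.92 in C4, 0.715 to 1.22 in C5 and 1.15 to 1.92 in C6. C2 was lowest, and its difference from the clone mean was -0.94 on the log2 scale (adjusted p = 0.000333). Every library of the other clones also lay below every WT library. C5 was lower than WT as well (log2 fold change -1.05, limma, adjusted p = 0.00712).

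The promoter windows of CALD1, MFAP2, CHL1 and ZNF22 are shown because these genes were at very different levels in C2 and in some or all other clones. They are the 300 bases around the gene start that RefSeq gives (GRCh38.p14), mostly before it, are written 5′ to 3′ on the gene's strand, and RP11-568K15.1 had no entry of this symbol. Capitals mark each CG dinucleotide.
CALD1: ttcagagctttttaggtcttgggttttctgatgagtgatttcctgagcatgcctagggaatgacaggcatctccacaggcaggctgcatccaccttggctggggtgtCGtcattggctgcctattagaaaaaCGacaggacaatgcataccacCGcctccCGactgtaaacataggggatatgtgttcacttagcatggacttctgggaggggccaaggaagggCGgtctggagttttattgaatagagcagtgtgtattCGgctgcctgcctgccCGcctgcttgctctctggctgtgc
MFAP2: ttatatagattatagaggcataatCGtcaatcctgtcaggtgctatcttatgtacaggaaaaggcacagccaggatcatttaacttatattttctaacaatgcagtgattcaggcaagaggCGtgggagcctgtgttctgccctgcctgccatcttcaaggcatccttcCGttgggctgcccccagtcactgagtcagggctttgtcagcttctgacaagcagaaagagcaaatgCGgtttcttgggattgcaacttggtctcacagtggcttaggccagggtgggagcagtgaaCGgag
CHL1: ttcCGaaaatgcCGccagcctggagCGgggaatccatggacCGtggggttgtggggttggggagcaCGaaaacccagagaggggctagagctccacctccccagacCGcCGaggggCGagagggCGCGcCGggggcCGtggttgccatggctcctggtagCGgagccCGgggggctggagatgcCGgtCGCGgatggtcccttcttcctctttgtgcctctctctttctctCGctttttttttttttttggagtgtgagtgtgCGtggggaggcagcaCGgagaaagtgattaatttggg
ZNF22: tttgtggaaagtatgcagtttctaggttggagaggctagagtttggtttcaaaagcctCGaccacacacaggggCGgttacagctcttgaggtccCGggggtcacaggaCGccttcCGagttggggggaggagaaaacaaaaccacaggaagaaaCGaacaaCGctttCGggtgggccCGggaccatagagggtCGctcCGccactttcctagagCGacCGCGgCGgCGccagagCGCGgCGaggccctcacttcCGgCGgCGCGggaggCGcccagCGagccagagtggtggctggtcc
The windows are chr7:134779384-134779683 (plus), chr1:16981534-16981833 (minus), chr3:197639-197938 (plus) and chr10:45000673-45000972 (plus). GENCODE places the gene starts of CALD1 (134744252), MFAP2 (16980632) and CHL1 (196763) outside these windows and that of ZNF22 (45000923) inside. Which start these cells use was not tested. CALD1 has 7 CG dinucleotides and MFAP2 5, numbers reached by 63.2% and 70.4% of 35116 RefSeq promoter windows of this length. CHL1 has 20 and ZNF22 25, reached by 41.2% and 32%. Windows both poor and rich in CG were thus among them.

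In several other genes that differed between C2 and the clone mean, the clones were divided. ZNF22 was nearly silent in C2, C4 (0.0396 to 0.737), C5 (0.588 to 1.21) and C6 (0.0772 to 0.542), and expressed in C1 (8.07 to 12.1) and C3 (15 to 18.5). PCDHB2 was at 7.44 to 8.16 in C5, above C2, and 0.151 to 2.11 in the remaining clones. SFRP1 was higher in C2 than in C1, C3, C4 and C5 and overlapped C6 (6.54 to 13.2). BMP7 exceeded the clone mean by 0.76 and SLC19A3 by 0.93 on the log2 scale, with overlap in both. SYT1 and SPARC, with the largest increase and decrease against WT among genes without overlap of the groups, did not pass the test against the other clones (0.19 ± 0.25 SE, adjusted p = 0.987 for SYT1 and -0.64 ± 0.19 SE, adjusted p = 0.202 for SPARC), and the other clones ranged over 13.8 to 83.8 FPKM of SYT1 and 1.17 to 12 of SPARC. HDAC9, a class II histone deacetylase, had an FPKM of 153, 103, 146 and 136 in C2 and 48.7, 47.4, 40.6 and 46.1 in WT (log2 fold change 1.52 ± 0.14 SE, limma, adjusted p = 0.000921), and was above the clone mean by 0.69. The other clones reached 116, so only C2 replicate 2 fell within their range.

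In all, 11 genes lay outside the other clones and passed the test against their mean (0.0838% of those tested). Besides the 4 described, 7 lay outside but were not called against WT. AMACR, a racemase of fatty acid oxidation, had an FPKM of 12.8, 5.95, 10.2 and 8.88 in C2 and 5.05, 3.41, 4.34 and 4.24 in WT, and the 20 other libraries ranged over 2.55 to 5.27 (C2 against the clone mean, 1.06 ± 0.13 SE, adjusted p = 8.53e-05). SLC7A2, a cationic amino acid transporter, was at 15.7, 23.3, 21.3 and 15.4 in C2 against 9.33 to 14.1 in the other clones. UGT3A2, a glycosyltransferase, and VARS, a valyl-tRNA synthetase, were higher than the clone mean by 1.06 and 0.34. Clone by clone VARS passed against C6 (0.82, limma, adjusted p = 8.28e-06). Its differences of 0.14 to 0.30 from C1, C3, C4 and C5 did not pass. UGT3A2 overlapped WT, at 1.23 to 1.90 in C2 and 0.656 to 1.59 in WT, and the other clones ranged over 0 to 0.995. WNT10B, a Wnt ligand, BST1, an NAD-consuming ectoenzyme, and UPRT, a uracil phosphoribosyltransferase homologue, were lower, with differences of -0.71, -0.73 and -0.45 on the log2 scale. Against WT the log2 fold changes of the 7 ran from -0.97 (BST1) to 0.96 (AMACR), all with the same sign as against the clones.

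COLEC11, a collectin of innate immunity, and CYP1B1, a cytochrome P450 of estrogen and xenobiotic metabolism, were among the called genes that exceeded the clone mean. COLEC11 had an FPKM of 4.90, 3.85, 4.93 and 3.24 in C2 and 0.313, 1.38, 1.06 and 0.537 in WT, and the other clones reached 3.70 (C2 against the clone mean, 1.01 ± 0.13 SE, adjusted p = 0.000229). CYP1B1 was at 4.33, 4.12, 4.13 and 5.0 in C2 and 0.278, 0.307, 0.886 and 0.518 in WT, and the other clones ranged over 0.290 to 8.33 (C2 against the clone mean, 0.72 ± 0.14 SE, adjusted p = 0.0218). Relative to the clone mean the median log2 difference was -0.27 for the epithelial markers, -0.15 for annexins and S100 proteins, -0.13 for the mitochondrially encoded mRNAs, -0.14 for cholesterol synthesis and 0.07 for the HOX genes. The ATF4 list kept 0.38, with no member past the adjusted test.

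C2 was also set against EV, which went through transfection without a guide RNA. Of the 159 genes called against WT, 98 passed the same call in the same direction against EV, and 156 had the same sign. A fit of C2 against EV with its own filter on FPKM gave 187 calls. The same C2 libraries enter both comparisons, so shared signs and calls follow in part from the selection and are no independent test. In EV itself 5 of the 159 were called in the same direction against WT. TCEAL9, a transcription elongation factor-like gene on the X chromosome, went the other way: its FPKM was 3.22, 1.35, 2.86 and 1.15 in C2 and 6.32, 5.25, 5.61 and 6.01 in WT, EV was at 0.122 to 0.280 and C4 at 45.3 to 66.6. C2 was thus below WT (-1.17) and above EV (log2 difference 1.31). The 2 glypican genes GPC3 and GPC4, neighbours on the X chromosome that encode heparan sulfate proteoglycans of the cell surface, were both called lower against WT (-1.13 and -1.04) and differed by -0.81 and -0.93 from EV, under 2-fold. The GPC4 call was also lost without WT replicate 1 (-0.97) or WT replicate 2 (-0.96).

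Among 158 called genes with a position in the annotation, 14 pairs lay within 500000 bases of each other, and in 12 of them both genes moved the same way. They included CYR61 and DDAH1, an enzyme that breaks down methylarginines (log2 fold changes -2.22 and -1.31), and GPC3 with GPC4. In 4 pairs the genes overlap, so that reads may be shared. The 14 pairs hold 24 genes, so some genes count in more than 1 pair. How often tested genes in general form such pairs was not computed, so the count does not show clustering.

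By chromosome position, most genes on the first part of chromosome 8 were above WT in C2. This was noticed in the data and is given as a description. The 159 tested genes that start before position 45000000 had a median log2 difference of 0.18 from WT and 0.20 from the mean of the other clones, against -0.03 and -0.01 for all tested genes. Of the 159, 119 were above WT and 140 above the other clones (74.8% and 88.1%), beside 45.7% and 46.4% of all tested genes. The other 289 genes of chromosome 8 had medians of 0.02 and -0.01. The C2 libraries differed among themselves. Relative to the WT mean, the median over the 159 genes was 0.27, 0.23 and 0.19 in C2 replicates 1, 2 and 3 and 0.03 in replicate 4. In the 28 libraries of the other lines it ran from -0.11 to 0.09, so replicate 4 lay within their range. Genes are not replicates of each other, and neighbours share this position. SFRP1 and SLC7A2 lie in this stretch, and with 7 others they made up 9 of the 36 genes that were higher in C2 than in the mean of the other clones. SFRP1 changed far more than the median of the stretch.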

How the data were processed

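RNA of HAP1 cells was sequenced as read pairs after TruSeq library preparation. After alignment by STAR to GRCh38.p13, the authors estimated gene levels with RSEM and deposited them as FPKM, with no further normalization. Versions of STAR and RSEM, and whether counting used strand, are not given in the sources used here. The table holds 57507 genes in 47 libraries, and 98.1% of the genes matched GENCODE release 44 by identifier. FPKM sums were 606914 to 654081 in C2 and 627676 to 644061 in WT, with 18271 to 18582 and 18570 to 18962 genes above 0. Correlations between replicates were 0.986 to 0.993 in C2 and 0.982 to 0.993 in WT. The number of identical library pairs was 0.

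Values were analysed as log2(FPKM + 1) for genes that averaged 1 FPKM or more in the 8 C2 and WT libraries. limma 3.58.1 (R 4.3.3, variance trend) compared C2 with WT, and in a second fit of the 24 mutant libraries C2 with the mean of the other 5 clones. p-values were adjusted by Benjamini-Hochberg over all 13120 genes. Single values were compared by exact two-sided permutation tests. Scripts were tested on simulated data. C2 and WT libraries of the same replicate number deviated together, with correlations of 0.242 to 0.432. Some libraries of different numbers correlated as much or more, C2 replicate 1 with WT replicate 2 at 0.597 and C2 replicate 4 with WT replicate 3 at 0.433. Since every pair of the same number was above 0.1, a block on the number, which the labels give, was fitted as an alternative.

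The genes named are the 12 called genes with the largest change in each direction whose libraries do not overlap, the called members of the lists, the genes that set C2 apart and 4 karyopherins. COCH, LXN, HDAC9, CYP1B1, COLEC11, TCEAL9, GPC3, GPC4, DDAH1, SOCS2-AS1, ASNS, AC000041.8, AC007881.4, ACTG2, CH17-472G23.2, BRD9P2, the members that passed only the adjusted test, and the 7 genes outside the other clones but not called were chosen after their values were seen. The members and lists were chosen with earlier results of these data known.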

Additional observations from a re-analysis of the deposited data

Results flagged for a closer look

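Of 104 groups of 4 libraries that were checked for the 52 genes named by rule, 12 (11.5%) held a library far from the other 3, where chance gives about 1 in 20. Genes named after their values were seen were not checked in this way. In WT these were the FPKM of MFAP2 in replicate 2 (0.746), DLK1 in replicate 3 (12.2), ERVK-28 in replicate 2 (8.39), CYR61 in replicate 1 (43.5), CALD1 in replicate 1 (23.8) and CADM1 in replicate 4 (1.91). In C2 they were DLK1 in replicate 3 (27.8), GPR1 in replicate 2 (40.6), CYR61 in replicate 2 (5.50), KLF2 in replicate 2 (3.61), NQO1 in replicate 2 (19.1) and HOXC10 in replicate 4 (16.8). Replicate 2 thus held 4 of the 6 in C2. KLF2 and CADM1 overlapped between C2 and WT through such a library, while MFAP2, DLK1, GPR1, ERVK-28, CYR61, CALD1, NQO1 and HOXC10 did not overlap.

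The response of C2 differed from the mean of the other 5 clones in a direct limma test for 9 of the genes named by rule. Passing this test is part of what set MFAP2, CHL1, CALD1 and RP11-568K15.1 apart, so for these 4 it adds nothing to their choice, and CALD1 and RP11-568K15.1 were named on that ground alone. On the log2 scale C2 was higher by 2.72 in MFAP2 (adjusted p = 7.55e-07), 1.39 in CHL1 (0.00212), 1.37 in PCDHB2 (4.96e-06), 1.13 in SFRP1 (0.00464), 0.93 in SLC19A3 (0.034) and 0.76 in BMP7 (0.00856). The difference was -1.82 in CALD1 (adjusted p = 7.55e-07), -1.501 in ZNF22 (4.96e-06) and -0.94 in RP11-568K15.1 (0.000333). All 4 C2 libraries lay outside the 20 libraries of the other clones in MFAP2, CHL1, CALD1 and RP11-568K15.1, and at least 1 lay among them in the other 5.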

How the results depend on the processing

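The 159 calls became 75 with a mean FPKM of at least 5, 100 with unmoderated tests of unequal variances, 414 with a fold limit of 1.5 and 73 with a fold over 2 and an adjusted p under 0.05. The 96 genes with an adjusted p under 0.05 became 161 with the replicate block, 247 against EV, 727 against WT and EV together, 533 with all 32 libraries in 1 fit and 3 with unmoderated tests. The replicate block gave 174 calls, and every named gene called without it was also called with it. It moved the adjusted p of the named genes given above across 0.05, and also that of AMACR (0.0318), BST1 (0.0469) and TCEAL9 (0.0456) below it, and changed no other call of a gene the text names. Leaving out 1 library gave 137 to 179 calls, 34 to 93 genes with an adjusted p under 0.05, 4 to 8 genes that set C2 apart (leaving out WT libraries for this count was added after the data were seen) and a NUP58 log2 fold change of -2.04 to -1.86. NUP58 stayed lower by at least 1.86 under all alternatives, with an adjusted p of 0.0618 (log2 fold change -1.96) in the unmoderated test. The genes that set C2 apart numbered 7 with a pseudocount of 0.1, adding AMACR, WNT10B and BST1. The direction reversed for STXBP2 against EV (-0.29), TCEAL9 against EV (1.31) and against WT and EV together (0.06995). It also reversed for KPNB1 without C2 replicate 4 (-0.0003068) or WT replicate 2 (-0.07504, range over single libraries to 0.2891), and for ASNS without C2 replicate 2 (-0.25) or WT replicate 3 (-0.06, range to 0.8788). The cause of these changes was not tested. Of 1543 values of 83 genes under alternatives, 1383 kept direction and call, 137 lost the call, 16 gained one and 7 reversed. FPKM gives no fragment counts, so how depth limits low genes is unknown, and 1 clone stands for the genotype.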
